A study of Mus musculus with 12 samples.

Results

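Complement and coagulation factors were followed as 51 genes, chosen by name from a given list and read by gene symbol in the 3 expression tables, which together list 18539 genes. The list holds the recognition proteins and proteases that start complement, the components C3 to C9, the alternative pathway, complement regulators and receptors, fibrinogen, the clotting factors, and the anticoagulants and fibrinolysis. The hepatocyte and adipocyte tables list all 51 genes and the C2C12 table lists 37. The 14 genes not listed in the C2C12 table were C1qa, C1qb, C1qc, C6, C8a, C8b, Mbl1, Mbl2, C4bp, Fga, Fgb, Fgg, F9 and F11.

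Poly(A) RNA was sequenced from mouse cells of 3 types under 4 treatments, with 1 library for each of the 12 combinations. The treatments were olanzapine (1 μM) with calcifediol (10 μM), olanzapine (1 μM) with calcitriol (0.1 μM), olanzapine (1 μM) alone, and the DMSO vehicle. Olanzapine is an antipsychotic drug, calcifediol is the circulating form of vitamin D, and calcitriol is the hormone that binds the vitamin D receptor. Treated cultures had 24 h of pre-exposure and 12 h with olanzapine, whereas vehicle cultures had 36 h of vehicle, so every culture that received a vitamin D metabolite also received olanzapine. The hepatocytes were isolated from livers of male C57BL6/J mice and kept in serum-free medium with dexamethasone. The adipocytes were differentiated in culture from subcutaneous preadipocytes of C57BL6/J pups. C2C12 is an established mouse muscle cell line, used after differentiation into myotubes, and it represents 1 immortal line rather than muscle tissue. The sources used here do not say whether the 4 libraries of a cell type came from separate preparations of cells.

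The complement system is a chain of plasma proteases in which C1, mannose-binding lectin or the alternative pathway leads to the cleavage of C3, and C5 to C9 then form a pore in the target membrane. Coagulation is a parallel chain of proteases that ends with thrombin, which turns fibrinogen into fibrin, and it is held back by antithrombin, protein C with its cofactors, and tissue factor pathway inhibitor. The liver makes most of these plasma proteins, while macrophages, adipocytes, fibroblasts and endothelial cells make a part of them or carry their membrane-bound regulators. The vitamin D receptor binds DNA together with the retinoid X receptor, classically at direct repeats of a hexamer such as AGGTCA or GGTTCA with 3 bases between them.

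To show what stands before a gene with a large difference and before genes without a call, sequences upstream of C3, Fgb and Fgg are printed. They are the 250 bases before the RefSeq start, 5′ to 3′ on the strand of the gene, from the RefSeq annotation on GRCm38.p6. Each AGGTCA or GGTTCA hexamer of either strand is in capitals. C3 is the member with the largest difference in C2C12 cells, while Fgb and Fgg encode fibrinogen chains that were not called in any comparison of hepatocyte libraries and are not listed in C2C12 cells. The windows are chr17:57228137-57228386 on the minus strand for C3, chr3:83049864-83050113 on the minus strand for Fgb and chr3:83007474-83007723 on the plus strand for Fgg.
C3: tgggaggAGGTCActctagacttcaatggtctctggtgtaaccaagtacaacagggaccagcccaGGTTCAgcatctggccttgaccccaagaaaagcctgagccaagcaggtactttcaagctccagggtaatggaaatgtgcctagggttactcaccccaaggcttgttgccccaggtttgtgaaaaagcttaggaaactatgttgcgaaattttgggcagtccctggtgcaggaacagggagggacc
Fgb: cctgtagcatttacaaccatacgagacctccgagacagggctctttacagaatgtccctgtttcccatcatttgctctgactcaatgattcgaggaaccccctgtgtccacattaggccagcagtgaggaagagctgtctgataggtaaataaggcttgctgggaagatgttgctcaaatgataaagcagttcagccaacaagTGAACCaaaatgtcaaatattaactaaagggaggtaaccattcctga
Fgg: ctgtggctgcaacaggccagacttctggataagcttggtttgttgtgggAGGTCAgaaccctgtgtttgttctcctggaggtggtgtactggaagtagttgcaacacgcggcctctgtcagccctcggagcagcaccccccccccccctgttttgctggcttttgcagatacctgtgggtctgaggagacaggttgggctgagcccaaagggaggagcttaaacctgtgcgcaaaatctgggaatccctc
The C3 window held 2 hexamers, at −243 and −185 from the start, Fgb held 1 on the opposite strand at −47 and Fgg held 1 at −201. The RefSeq table of promoters held 39 of the 51 genes in 42 windows. At least 1 of the hexamers AGGTCA and GGTTCA was found on either strand in 38.1% of these windows, against 21.5% of all 32851 windows of the same length. The 16 genes with a hexamer included C3 but not Thbd, Masp1 or Serping1, and not every member has a window. The DR3 vitamin D response element, a repeat of such hexamers, was found in 0 of the 42 windows and in 0.0396% of all windows. A match describes letters in this window and is not a measured binding site.

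Total counts were 15641434 to 19348338 per library, so that 3 counts, the limit that a count of 0 allows, corresponded to 0.155 to 0.192 CPM, the count divided by the library total and scaled to a sum of 1e6. All intervals and limits cover counting error only. The labelled cell types matched their markers, with a hepatocyte marker sum of 71960 to 76290 CPM in hepatocytes, an adipocyte sum of 15020 to 16700 CPM in adipocytes and a myotube sum of 15050 to 16110 CPM in C2C12 cells. Cyp24a1, the target gene of the vitamin D receptor that degrades calcitriol, had 6193 and 9096 counts in the calcifediol and calcitriol libraries of C2C12 cells, against 0 with olanzapine alone and 1 with vehicle. In adipocytes it had 661 and 579 counts in these libraries, against 0 and 2, and in hepatocytes 4 and 4, against 0 and 0. Vdr, the receptor itself, had 8411 and 9240 counts in C2C12 cells with a metabolite, against 1939 with olanzapine and 2034 with vehicle, while it had 20 to 33 counts in adipocytes and 1 to 2 in hepatocytes. The hepatocyte library with calcitriol held 365 counts of the fibroblast list, of which 191 were Col1a1, against 33 to 59 counts in the other hepatocyte libraries.

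The 51 genes took 1.39% of all counts with calcifediol, 1.49% with calcitriol, 1.495% with olanzapine and 1.39% with vehicle in hepatocytes. In adipocytes they took 0.246%, 0.308%, 0.186% and 0.198% in the same order of treatments, and C3 made up most of these counts. In C2C12 cells they took 0.0784%, 0.0526%, 0.0234% and 0.0235%. Within a cell type, a gene was tested where some library reached a TPM of 1, and this filter left 44 of the 51 genes for hepatocytes, 21 for adipocytes and 16 for the C2C12 line. C7 had 0 counts in every hepatocyte library, 11 genes had 0 in every adipocyte library and 7 of those listed had 0 in every C2C12 library. C3, C8g and Clu passed in C2C12 cells only through libraries with a vitamin D metabolite, so a difference in these genes was built into their passing. These are bulk cultures, in which fewer cells of a type and less RNA per cell cannot be told apart.

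**Figure D1:**
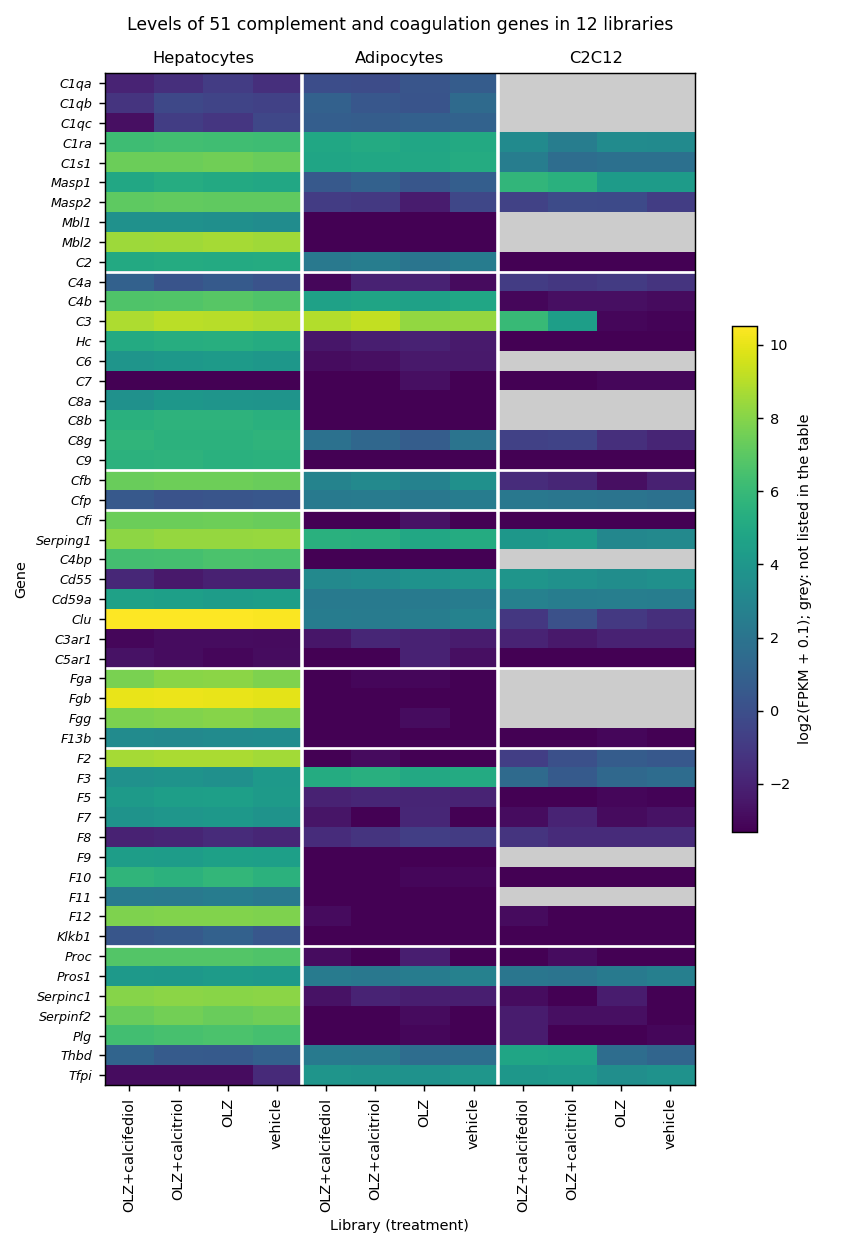
Levels of the 51 genes (rows, grouped by role) in the 12 libraries (columns, 4 treatments in each of 3 cell types), as log2 of FPKM plus 0.1, with genes not listed in a table in grey. The hepatocyte columns are bright over most rows, with 44 genes past the TPM filter, while C3 is bright in adipocytes and only in the calcifediol and calcitriol columns of C2C12 cells.

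Among the genes that start complement, hepatocytes held the lectin pathway at high levels. Mbl2, a mannose-binding lectin, had 349 and 357 CPM with calcifediol and calcitriol, 392 CPM with olanzapine and 369 CPM with vehicle in hepatocytes, and 0 counts in all adipocyte libraries. Masp2, the protease bound to these lectins, had 130, 131, 135 and 131 CPM in the same order, and C1s1, the protease of the C1 complex, had 480, 478, 519 and 464 CPM. C1ra, the protease that activates C1s, had 201, 215, 206 and 197 CPM in hepatocytes in this order, 81.3, 92.6, 76.1 and 89.1 CPM in adipocytes, and 26.0, 15.4, 27.4 and 26.3 CPM in C2C12 cells, where the calcitriol library was the low one. The counts of C1ra in adipocytes and C2C12 cells and of C1s1 in each cell type were not all whole, so these values are uncertain. C1s1 was at 80.1 to 102.7 CPM in adipocytes and 8.56 to 16.0 CPM in C2C12 cells, and C2, the protease of the classical C3 convertase, was at 10.3 to 14.7 CPM in adipocytes. None of these genes was called in a comparison of 2 libraries of a cell type. The Masp2 locus overlaps Tardbp, which had 65.3 to 77.2 CPM in hepatocytes, and C1s1 has a near copy, C1s2, which had 0 to 3 counts there. The sources used here do not state whether strand was used in the counting, so reads of overlapping genes cannot be told apart. The 3 chains of C1q, which macrophages make, were low, with C1qa to C1qc at 0.0521 to 0.672 CPM in hepatocytes and 0.817 to 2.62 CPM in adipocytes. In hepatocytes the macrophage list summed to 325 to 456 CPM, but 5844 to 8198 counts of it were Cd68, while Timd4 was at 0 and Clec4f, which marks Kupffer cells, at 0 to 1 counts.

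C3, on which all complement routes converge, had 1987 and 2405 CPM in hepatocytes with calcifediol and calcitriol, 2336 CPM with olanzapine and 2018 CPM with vehicle. In adipocytes C3 had 1870 and 2438 CPM with the metabolites, 1284 CPM with olanzapine and 1298 CPM with vehicle. In C2C12 cells C3 had 289 and 93.3 CPM with the metabolites, against 0.112 CPM with olanzapine and 0.0543 CPM with vehicle, that is 5046 and 1679 counts against 2 and 1. The libraries with a metabolite lay above both others in adipocytes and in C2C12 cells, and the groups overlapped in hepatocytes. C4b, the complement C4 gene, had 553 to 639 CPM in hepatocytes, 127 to 153 CPM in adipocytes and 0.115 to 0.278 CPM in C2C12 cells, but it shares reads with its near copy C4a, so these values are uncertain. The terminal factors C6, C8a, C8b and C9, which build the membrane pore, were found at 40.2 to 105.5 CPM in hepatocytes and at 0 to 0.256 CPM in adipocytes. C8g, whose locus overlaps Fbxw5, had 41.1 to 49.2 CPM in hepatocytes.

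Of the alternative pathway, Cfb, which encodes the protease of its C3 convertase, had 432 and 466 CPM with calcifediol and calcitriol, 468 CPM with olanzapine and 433 CPM with vehicle in hepatocytes. In adipocytes Cfb had 19.2 and 23.5 CPM with the metabolites, 18.6 CPM with olanzapine and 32.4 CPM with vehicle, so the vehicle library was the high one. Cfp, which encodes properdin, the stabilizer of that convertase, was low throughout, at 1.65 to 2.14 CPM in hepatocytes, 6.97 to 8.695 CPM in adipocytes and 5.43 to 6.995 CPM in C2C12 cells.

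Among the regulators, Clu, which encodes clusterin, an inhibitor of the terminal complex, was the most abundant of the 51 genes in hepatocytes per length as well as per count. It had 2534 and 2505 CPM with calcifediol and calcitriol, 2458 CPM with olanzapine and 2390 CPM with vehicle, and its median FPKM was 1441, against 1060 for Fgb and 489 for C3. Serping1, the C1 inhibitor, had 496 to 577 CPM in hepatocytes, 53.6 to 75.1 CPM in adipocytes and 14.6 to 32.3 CPM in C2C12 cells. Cfi, the protease that inactivates C3b, had 329 to 350.1 CPM and C4bp, the C4b-binding protein gene, had 151 to 173 CPM in hepatocytes. Cd59a, which encodes a membrane inhibitor of the pore, had 33.0 to 40.1 CPM in hepatocytes, 8.44 to 9.27 CPM in adipocytes and 9.34 to 11.1 CPM in C2C12 cells. Cd55, which encodes the membrane protein that speeds the decay of C3 convertases, ran the other way, with 0.310 to 0.834 CPM in hepatocytes, 24.5 to 41.5 CPM in adipocytes and 29.8 to 38.0 CPM in C2C12 cells.

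The fibrinogen chains were abundant in hepatocytes. Fgb had 1705 and 1789 CPM with calcifediol and calcitriol, 1736 CPM with olanzapine and 1619 CPM with vehicle. Fga had 612, 752, 784 and 668 CPM in this order and Fgg had 359, 382, 415 and 367 CPM. In adipocytes these chains had 0 to 1 counts in any library. F13b, the carrier subunit of the factor that cross-links fibrin, had 20.4 to 24.4 CPM in hepatocytes. Of the clotting factors, F2, the prothrombin gene, had 763 to 847 CPM and F12 had 435 to 453 CPM in hepatocytes. F10, whose protease cleaves prothrombin, had 114 to 139 CPM and F9, whose protease activates factor X, had 53.4 to 62.1 CPM there. F3, which encodes tissue factor, the membrane protein that starts coagulation, was instead highest in adipocytes at 57.4 to 74.8 CPM, with 21.9 to 32.0 CPM in hepatocytes and 2.56 to 5.22 CPM in C2C12 cells.

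Among the anticoagulants, Serpinc1, the antithrombin gene, had 400 to 428 CPM, Serpinf2, the inhibitor of plasmin, had 341 to 406 CPM and Proc, the protein C gene, had 158 to 172 CPM in hepatocytes. Plg, which encodes plasminogen, had 216 to 257.5 CPM there. Tfpi, the inhibitor of tissue factor, was at 0.0521 to 0.373 CPM in hepatocytes, against 30.8 to 34.4 CPM in adipocytes and 22.9 to 34.2 CPM in C2C12 cells. Pros1, the protein S cofactor of protein C, was found in every cell type, at 53.7 to 62.2 CPM in hepatocytes, 14.7 to 21.1 CPM in adipocytes and 12.7 to 19.7 CPM in C2C12 cells.

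The cell types were compared in a model of cell type and treatment fitted to the 12 libraries with edgeR, over 13323 genes listed in all 3 tables, of which 33 are members. Genes were called at an FDR of at most 0.05 and a fold of at least 2. In hepatocytes against adipocytes, 27 members were higher and 4 were lower, against a background of 18.9% of all genes higher and 25.8% lower. The 4 lower genes were Cd55, F3, Cfp and Tfpi. C3 and Thbd were not called, with C3 at a log2 fold change of 0.64 ± 1.16 (SE, edgeR adjusted p = 0.63). A treatment response that differs between cell types, such as that of these genes in C2C12 cells, enters the error of this fit. Thbd levels did not overlap, at 5.08 to 7.51 CPM in hepatocytes and 10.9 to 18.3 CPM in adipocytes. The levels of C3 in the metabolite libraries of adipocytes, 1870 and 2438 CPM, overlapped with the 1987 to 2405 CPM of hepatocytes. In hepatocytes against C2C12 cells, 28 members were higher and 4 were lower (Cd55, Cfp, Tfpi and Thbd), against 19.9% and 28.2% of all genes. The fit averages over the treatments, and the Thbd difference varied with them. Thbd had 6.65 CPM in hepatocytes and 8.04 CPM in C2C12 cells with vehicle, 5.08 and 10.97 CPM with olanzapine, and 7.51 and 102 CPM with calcifediol. Masp1 was not called between hepatocytes and C2C12 cells, at 0.14 ± 0.26 (SE, edgeR adjusted p = 0.636). This value averages opposite differences. Masp1 had 96.5 CPM in hepatocytes and 69.0 CPM in C2C12 cells with vehicle, but 94.95 and 205 CPM with calcifediol. In adipocytes against C2C12 cells, 13 members were higher, 3 were lower (F2, Masp1 and C4a) and 17 were not called, against 20.5% and 23.7% of all genes.

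The median log2 fold change of the 33 members was 4.38 in hepatocytes against adipocytes and 8.996 in hepatocytes against C2C12 cells, beside −0.06 and −0.10 over all genes. Fitted values of genes at 0 counts in 1 cell type depend on the prior count of the fit. With such genes set to the bound that 3 counts over the 4 libraries allow, the medians were 4.38 and 7.96. By these bounds Cfi was at least 8032-fold higher, Hc, the C5 gene, at least 4835-fold higher and F10 at least 2977-fold higher in hepatocytes than in C2C12 cells. In adipocytes against C2C12 cells the median was 0.62, beside −0.11 over all genes, and 6 members were at or under 3 counts in both cell types. Without these 6 and with C2 and Hc at their bounds, it was 1.85 over 27 members. Masp1 stood 4.14 ± 0.31 lower on the log2 scale in adipocytes than in C2C12 cells (SE, edgeR adjusted p = 5.06e-07).

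**Figure D2:**
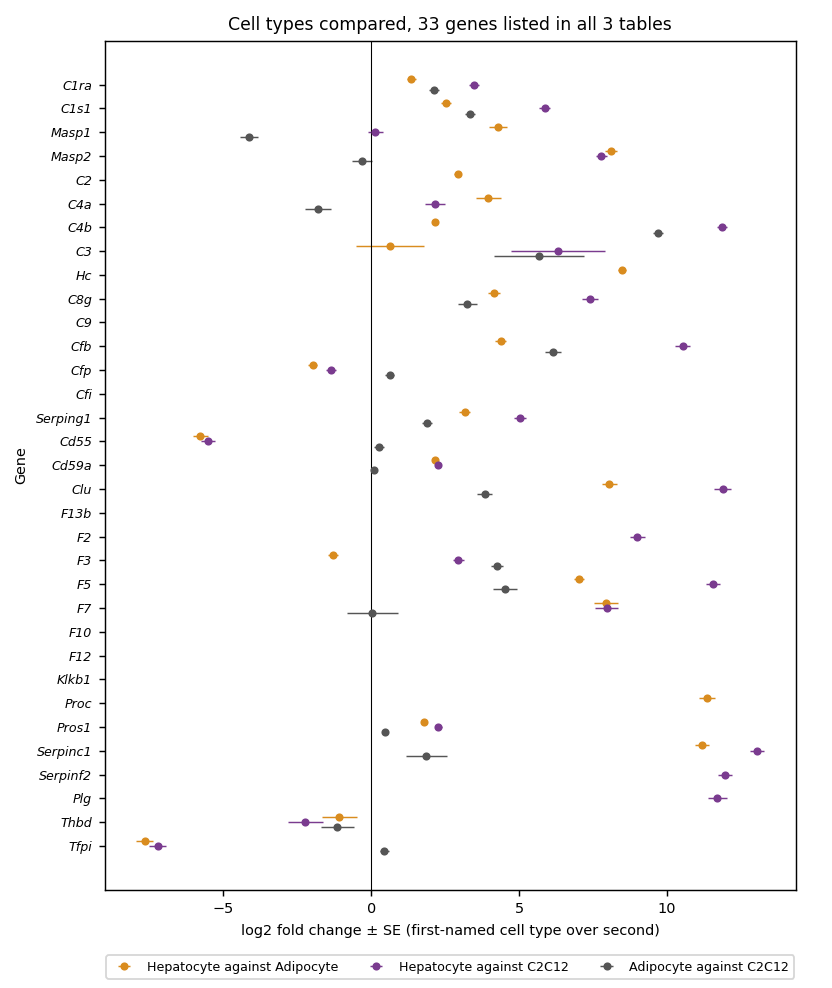
Log2 fold changes with standard errors from the edgeR model for the 33 genes listed in all 3 tables (rows), for hepatocytes against adipocytes, hepatocytes against C2C12 cells and adipocytes against C2C12 cells (colors), leaving out 9, 9 and 12 points where a cell type had at most 3 counts over its 4 libraries. Most points of the hepatocyte comparisons lie right of 0, while Cd55 and Tfpi lie between −7.66 and −5.52.

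To ask whether olanzapine changed these genes, the olanzapine library was compared with the vehicle library of each cell type, at the study's thresholds of a fold of at least 2 and an FDR of at most 0.05 by the Audic-Claverie test. This test compares the reads of 2 libraries, not conditions, and a difference between 2 libraries has no replicate check. In hepatocytes 0 of 44 members were called, against 0.356% of all genes tested. Klkb1, the plasma kallikrein gene, had the highest ratio with 178 counts against 119, and F3 had 402 counts with olanzapine against 602 with vehicle, a log2 ratio of −0.55 (95% interval −0.73 to −0.36). In C2C12 cells 0 of 16 were called, against 0.313% of all genes.

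In adipocytes 2 of 21 members were called with olanzapine, against 1.22% of all genes, and both were lower. The log2 ratio of C1qb was −1.28 (95% interval −2.19 to −0.47), from 18 counts with olanzapine and 41 with vehicle. That of C8g was −1.26 (−1.999 to −0.58), from 26 counts with olanzapine and 58 with vehicle, and Fbxw5, whose locus overlaps C8g, had 1313 and 1164 counts. The other chains of C1q were not called. C1qa had 19 counts with olanzapine and 24 with vehicle, and C1qc had 29 and 29. The macrophage list summed to 17.7 CPM with olanzapine and 18.4 CPM with vehicle, and its part in the C1qb value was not tested. All 21 ratios were below 0, with a median of −0.24, beside −0.03 over all genes tested. The direction depended on the scaling: relative to Rplp0, the reference gene of the study's qRT-PCR, the median of all genes moved to 0.35 and that of the members to 0.14, and 0 members were called.

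The question of the co-treatments was whether calcifediol or calcitriol changed expression in the presence of olanzapine. In hepatocytes 0 of 44 members were called with calcifediol, against 0.566% of all genes, and 0 of 44 with calcitriol, against 0.702%. C3 had 1987 CPM with calcifediol and 2336 CPM with olanzapine alone, a log2 ratio of −0.23 (95% interval −0.25 to −0.21). The lowest ratio with calcifediol was that of C1qc, which had 0.0521 CPM against 0.327 CPM. In the edgeR fit of the 2 libraries with a metabolite against the 2 without, 0 of 44 members passed in hepatocytes, against 0.0365% of genes higher and 0.0547% lower. None of the 44 had an unadjusted p under 0.05 in this edgeR fit, which has 2 residual degrees of freedom, and DESeq2 called 0 as well. Both hepatocyte libraries with a metabolite lay above both without for 5 of 44 members and below both for 4. The shares of all genes tested were 14.4% and 17.8%.

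In adipocytes 1 of 21 members was called with calcifediol, against 1.52% of all genes. This was C8g, with 57 counts against 26 with olanzapine alone, while the vehicle library had 58. The olanzapine library was thus the low one of the 3. With calcitriol 0 of 21 were called, against 0.974%. C3 had a log2 ratio of 0.54 (95% interval 0.52 to 0.57) with calcifediol and 0.93 (0.90 to 0.95) with calcitriol, under the 2-fold limit. Thbd, which encodes thrombomodulin, the endothelial receptor that turns thrombin towards protein C, had 316 counts with calcifediol and 269 with calcitriol, against 185 with olanzapine and 173 with vehicle. Serping1 had 1293 and 1176 counts with the metabolites, against 907 and 982. Cd55 had 422 and 452 counts with the metabolites, against 621 and 649.

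In the edgeR fit of the 2 adipocyte libraries with a metabolite against the 2 without, 0 of 21 members passed both limits, against 0.102% of genes higher and 0.0424% lower. C3 passed the FDR but not the fold, at 0.77 ± 0.13 on the log2 scale (SE, edgeR adjusted p = 0.0383). Thbd stood at 0.71 ± 0.14 (edgeR adjusted p = 0.0629), Serping1 at 0.39 ± 0.11 (edgeR adjusted p = 0.322) and Cd55 at −0.53 ± 0.12 (edgeR adjusted p = 0.166), the last 3 missing the FDR. These were the 4 members with an unadjusted p under 0.05, and DESeq2 called 0 by both limits. The libraries with a metabolite lay above both others for 4 of 21 members and below both for 6, against 14.4% and 24.7% of all genes tested.

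In C2C12 cells 4 of 16 members were called with calcifediol, against 11.6% of all genes, and 5 of 16 with calcitriol, against 8.36%. C3 had a log2 ratio of 11.01 (95% interval 9.48 to 14.38) with calcifediol and 9.38 (7.85 to 12.75) with calcitriol over olanzapine alone. It passed the filter only through the libraries with a metabolite, so a difference was built into its passing. Thbd had 1785 and 1685 counts with calcifediol and calcitriol, against 196 with olanzapine and 148 with vehicle, and its ratios were 3.22 (3.01 to 3.44) and 3.09 (2.88 to 3.31). Masp1, a protease of the lectin pathway, had 3581 and 3137 counts with the metabolites, against 1286 with olanzapine and 1270 with vehicle, and its ratios were 1.51 (1.42 to 1.61) and 1.28 (1.18 to 1.37). For these 3 genes both libraries with a metabolite stood above both libraries without. Rtp4, whose locus overlaps Masp1, had 89 and 46 counts with the metabolites, against 32 and 20.

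Serping1 had 478 and 581 counts in C2C12 cells with calcifediol and calcitriol, against 260 with olanzapine and 292 with vehicle. Its log2 ratio was 0.91 (95% interval 0.69 to 1.14) with calcifediol, just under the limit, and 1.15 (0.94 to 1.37) with calcitriol, just over it. Clu was called with calcitriol alone, with 30 counts against 12 with olanzapine and 8 with vehicle, while the calcifediol library had 11. Like C3, Clu passed the filter only through a library with a metabolite. F2 was lower with calcifediol, with 17 counts against 53 with olanzapine and 46 with vehicle, and the calcitriol library had 33. The F2 locus overlaps Ckap5, which had 1930 and 2115 counts with the metabolites, against 2403 and 2477, so the F2 values are uncertain. The doses of the metabolites differed, so their values stand side by side and were not compared.

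**Figure D3:**
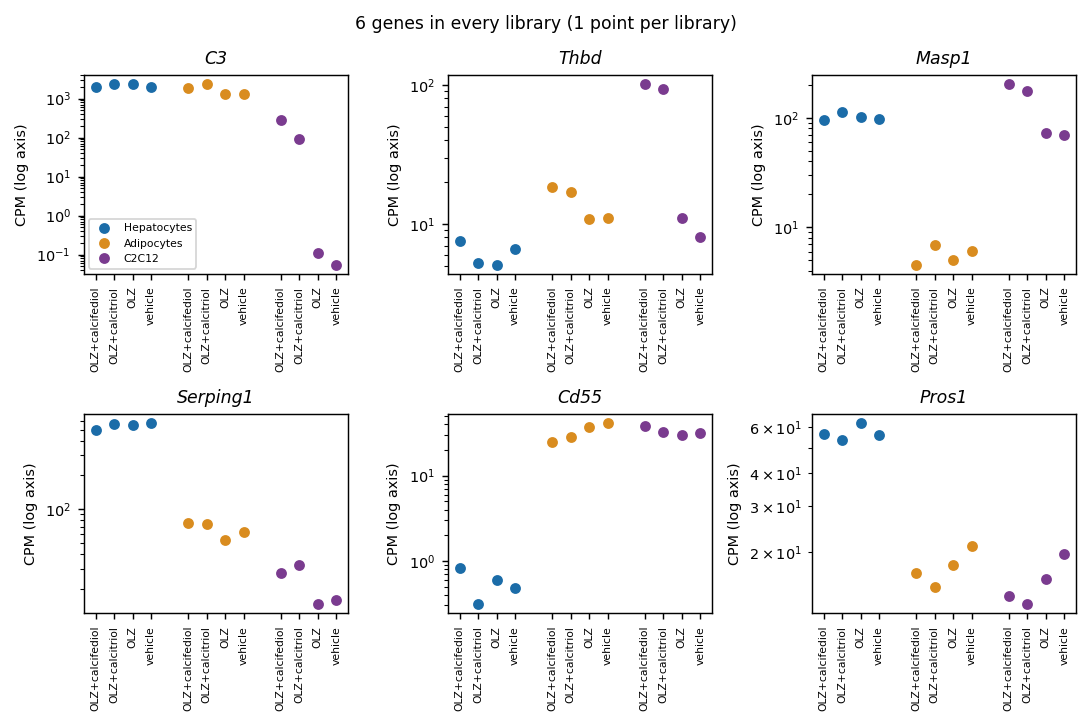
Levels of C3, Thbd, Masp1, Serping1, Cd55 and Pros1 in CPM (log axes) in each of the 12 libraries, with 1 point per library, ordered by cell type (color) and treatment. C3, Thbd, Masp1 and Serping1 stand higher in the calcifediol and calcitriol libraries of C2C12 cells, with Thbd at 102 and 93.6 CPM against 10.97 and 8.04 CPM.

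In the edgeR fit of the 2 C2C12 libraries with a metabolite against the 2 without, 3 of 16 members were higher and 0 lower, against 3.45% and 4.16% of all genes tested. C3 rose by 11.03 ± 0.97 on the log2 scale (SE, edgeR adjusted p = 0.000992), Thbd by 3.34 ± 0.16 (edgeR adjusted p = 0.000112) and Masp1 by 1.40 ± 0.10 (edgeR adjusted p = 0.000596). Since C3 passed the filter only through the libraries with a metabolite, a difference was built into its passing and its p-value adds no support. Serping1 passed the FDR but not the fold, at 0.95 ± 0.13 (edgeR adjusted p = 0.00493), as did Tfpi, at 0.43 ± 0.11 (edgeR adjusted p = 0.0411). Leaving out each of the 4 libraries in turn left a lone library in an arm. The log2 fold change was then 3.14 to 3.59 for Thbd, 1.29 to 1.51 for Masp1 and 0.82 to 1.07 for Serping1. That of C3 was 10.01 to 11.62, which adds no support either, since its difference was built into its passing. The arms of this fit mix 2 treatments each, so its spread also holds the difference between the metabolites and that between olanzapine and vehicle. The libraries with a metabolite lay above both others for 8 of 16 members and below both for 3, against 34.9% and 29.9% of all genes tested. Of the 8, C3 and C8g passed the filter only through libraries with a metabolite.

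Several marker lists moved with the metabolites in C2C12 cells. The fibroblast list, 7 of 7 genes listed, summed to 9015 and 9676 CPM with calcifediol and calcitriol, against 6573 CPM with olanzapine and 6388 CPM with vehicle. Col1a1 made up most of this sum, with 86484 and 98776 counts with the metabolites, against 66434 and 63245. Dpt went the other way, with 9 and 8 counts against 63 and 57, and Thy1 was at 0 in all 4 libraries. The macrophage list, 8 of 10 genes listed, summed to 14.5 and 9.45 CPM with the metabolites, against 8.96 and 7.88 CPM. In this list Cd68 had 124 and 69 counts with the metabolites, against 33 and 42. Csf1r went the other way, with 1 and 4 counts against 5 and 8, and Adgre1 was at 0 in 3 of the 4 libraries. The adipocyte list, 5 of 7 genes listed, summed to 11.1 and 6.84 CPM with the metabolites, against 5.37 and 3.70 CPM. Within it Fabp4 had 86 and 40 counts with the metabolites, against 0 and 0, and Lipe had 106 and 83, against 96 and 68. Lep was at 0 in all 4 libraries and Adipoq at 0 in 3. The myotube list, 8 of 8 genes listed, summed to 15830 and 16110 CPM with the metabolites, against 15240 and 15050 CPM. Its genes did not move alike. Myog, the myogenin gene of differentiating muscle, had 9184 and 9148 counts with the metabolites, against 14553 and 13751, while Ckm had 4351 and 5232, against 4150 and 4161. Whether cells of these other types were present in this line, and their part in the values of C3, Thbd, Masp1 and Serping1, was not tested.

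**Figure D4:**
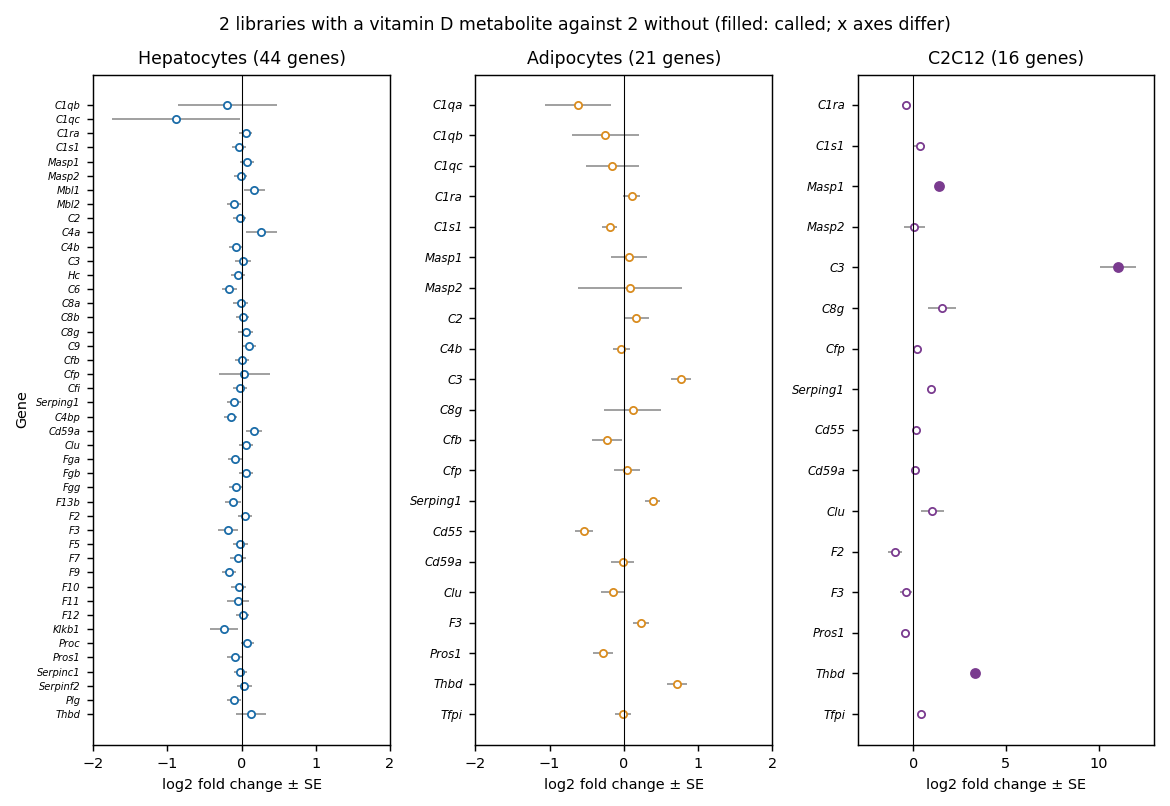
Log2 fold change with its standard error (edgeR) of the 2 libraries with a vitamin D metabolite against the 2 without, for each gene that passed the filter, in hepatocytes (44 genes), adipocytes (21 genes) and C2C12 cells (16 genes, on a wider axis), with called genes filled. Only C3, Thbd and Masp1 in C2C12 cells are filled, at 11.03, 3.34 and 1.40.

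The difference of the vitamin D effect between cell types was tested with the interaction of cell type and metabolite in edgeR over the 12 libraries, at an FDR of at most 0.05 and no limit on the fold. In C2C12 cells minus hepatocytes 4 of 33 members passed, against 8.01% of all genes. C3 differed by 10.99 ± 0.86 (SE, edgeR adjusted p = 3.72e-06), Thbd by 3.21 ± 0.26 (edgeR adjusted p = 5.58e-06), Masp1 by 1.33 ± 0.18 (edgeR adjusted p = 0.000461) and Serping1 by 1.05 ± 0.16 (edgeR adjusted p = 0.000969). In C2C12 cells minus adipocytes 5 of 33 passed, against 9.64%, with C3 at 10.23, Thbd at 2.61 and Masp1 at 1.32, and with Serping1 at 0.54 and Cd55 at 0.68, both at an edgeR adjusted p of 0.0458 to 0.048. Leaving out each of the 12 libraries in turn lost none of the calls of C3, Thbd and Masp1. The count in C2C12 cells minus adipocytes fell to these 3 without the vehicle or olanzapine library of hepatocytes or of C2C12 cells, or without the vehicle, calcifediol or calcitriol library of adipocytes. Against adipocytes, the Serping1 call was lost without 10 of the 12 libraries, each left out in turn, and the Cd55 call without 9 of the 12. In adipocytes minus hepatocytes 0 of 33 passed in edgeR, against 0.0375%, with 2 at an unadjusted p under 0.05, and DESeq2 called 0 as well.

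An effect of treatment common to all cell types was sought in the model of cell type and treatment. Of 33 members, 0 passed for olanzapine against vehicle, 0 for calcifediol with olanzapine and 0 for calcitriol with olanzapine against olanzapine alone, at a background of 0.0%, 0.015% and 0.06% of all genes. In this edgeR fit 0, 1 and 1 members had an unadjusted p under 0.05, and DESeq2 called 0 in each. A response that differs between cell types enters the error of this fit.

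Of a wider list of 60 complement and coagulation genes outside the 51, 30 passed the filter in C2C12 cells. With calcifediol 7 of these were higher and 6 lower, and with calcitriol 4 were higher and 5 lower, beside 11.6% and 8.36% of all genes tested in either direction. Vtn, which encodes vitronectin, an inhibitor of the membrane pore, had 56 and 102 counts with calcifediol and calcitriol, against 0 with olanzapine, and was thus at least 19.1-fold and at least 33.8-fold higher at a limit of 3 counts per library. The vehicle library had 1 count, so Vtn passed the filter only through the libraries with a metabolite, and a difference was built into its passing. Bdkrb2, a receptor for bradykinin, had 396 and 762 counts with the metabolites, against 32 with olanzapine, and Bdkrb1, the other bradykinin receptor, had 234 and 400, against 22. Gas6, a vitamin K-dependent ligand related to protein S, had 1566 and 1502 counts with the metabolites, against 255 with olanzapine. F2rl3, a receptor for thrombin, had 0 and 3 counts with the metabolites, against 19 with olanzapine.

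In adipocytes Vtn was the called gene of the 25 wider genes that passed, with 104 and 77 counts with calcifediol and calcitriol, against 9 with olanzapine, and 0 were called with olanzapine against vehicle, beside 1.52%, 0.974% and 1.22% of all genes tested with calcifediol, calcitriol and olanzapine. In hepatocytes 36 of the wider genes passed. Cfd, the adipsin gene of adipocytes, had 30 counts with calcitriol, against 2 with olanzapine, in the hepatocyte library that also held 33 counts of Adipoq, against 0 with olanzapine. The calcifediol and vehicle libraries of hepatocytes had 1 count of Cfd each. Cfd thus passed the filter only through the calcitriol library, and a difference was built into its passing. The part of adipocyte RNA in the Cfd value was not tested.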

How the data were processed

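Poly(A) RNA of 12 cultures was sequenced on the DNBseq platform, 1 library per group. The authors passed reads through the SOAPnuke filter, mapped the rest with HISAT 2.0.4 (genome build GRCm38.p6) and Bowtie 2.2.5, and quantified genes by RSEM 1.2.8. The deposited expected counts are not normalized. The authors also deposited FPKM, in which counts are divided by transcript length and sequencing depth. The 12 TPM columns were not used, because 2 of their names coincide, and TPM was recomputed from FPKM for the filter (TPM of at least 1 in any library). The gene annotation and the use of strand are not given in the sources used here.

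Expected counts were rounded. C1ra, C1s1, C4a, C4b, Cd55 and Cd59a had counts that were not whole, which shows reads shared with other loci. Pairs of libraries were compared as log2 ratios scaled to the library total (pseudocount 0.5, exact Clopper-Pearson 95% interval) with the two-sided Audic-Claverie test, Benjamini-Hochberg adjusted over all genes tested. Fits used edgeR 4.0.16 (quasi-likelihood, TMM), with DESeq2 1.42.0 as an alternative, in R 4.3.3 and Python 3.11.15 (scipy 1.17.1). The SE of an edgeR value was derived as the absolute log2 fold change divided by the square root of the F statistic of its test. It is approximate for genes near 0 counts in a group. All members are accounted for. Those called, or among the 4 highest of their role by FPKM in a cell type, were described with their levels or the range of these, and up to 4 called genes of the wider list per comparison. A called gene of the wider list is not reported here. The members and lists were chosen with earlier results of these data known, and the interaction fits and the Rplp0 scaling were added after the data were seen. Since no group has a second library, p-values measure the spread between libraries that differ in treatment. The procedures were tested on simulated data.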

Additional observations from a re-analysis of the deposited data

Results flagged for a closer look

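The effect of the vitamin D metabolites differed between cell types by the interaction of cell type and metabolite in edgeR. In C2C12 cells minus hepatocytes, the difference on the log2 scale was 10.99 for C3, 3.21 for Thbd, 1.33 for Masp1 and 1.05 for Serping1. In C2C12 cells minus adipocytes it was 10.23 for C3, 2.61 for Thbd, 1.32 for Masp1, 0.68 for Cd55 and 0.54 for Serping1. An order without overlap was common among all genes tested. Hepatocyte libraries with a metabolite lay above both others for 14.4% of genes and below both for 17.8%. For adipocytes these shares were 14.4% and 24.7%, and for the C2C12 line 34.9% and 29.9%. Such an order alone thus does not set Cd55 or Clu apart from other genes. For Cd55, both libraries with a metabolite lay above both others in C2C12 cells, at a ratio of mean CPM of 1.14. In adipocytes they lay below both, at 0.677. For Clu, they lay above both others in hepatocytes, at a ratio of 1.04, and below both in adipocytes, at 0.881, a difference in direction that passed no test in the interaction fit (edgeR adjusted p = 1.0).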

How the results depend on the processing

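Of the counts of called genes, 200 values under the alternatives stayed within 1.5 times those reported and 16 moved further. The 200 include counts of 0 that stayed at 0. Of the values of single genes listed, 24 lost the call reported, and none changed its direction. With the fold alone, 1 member was called with calcifediol in hepatocytes (C1qc), 2 with calcifediol in adipocytes and 1 with olanzapine in C2C12 cells (Masp2). For calcifediol in adipocytes, 0 were called with FPKM rescaled to TPM, 0 with a pseudocount of 5 and 3 without the filter. Relative to Rplp0, 0 were called in adipocytes with olanzapine and 0 with calcifediol, and the median of all genes there moved to 0.35 and −0.38, beside −0.22 with calcitriol in adipocytes and 0.19 with calcitriol in C2C12 cells. Without 1 library in turn, the count in C2C12 cells with a metabolite ranged over 3 to 5 and that of the difference between C2C12 cells and adipocytes over 3 to 7, where a lone library is assumed to vary like the others. DESeq2 also called F2 in C2C12 cells minus hepatocytes, which made 5. The cause of these differences was not tested.

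No paired analysis was possible because each group has 1 library and the labels carry no replicate numbers. In C2C12 cells, C3 had 2 and 1 counts with olanzapine alone and with vehicle, so the size of its ratio is known only within its interval, and values of F2, Clu and C8g rest on 3 to 53 counts per library.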
